A study of Homo sapiens with 12 samples.

Results

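The human HOX cluster genes were followed in HK2 cells, an immortalised human proximal tubular epithelial line, across untreated cells, cells given the inflammatory cytokine TNF-α and cells given TNF-α together with a short-chain fatty acid (SCFA). Members were all genes whose symbol is HOXA, HOXB, HOXC or HOXD followed by digits alone, which gave 39 of the 58278 genes listed. The gene level was the expected count, an estimate of the reads from each gene that need not be whole, in 12 mRNA libraries. Each group held 2 libraries, which a figure legend of the study calls biological replicates. The groups were untreated cells (Ctrl), cells kept with 5 ng/mL TNF-α over 3 h (TN), cells with 15 mM propionate (PRTN) or 3 mM butyrate (BUTN) for 24 h ahead of TNF-α, and cells with the same propionate (TNPR) or butyrate (TNBU) for 24 h following TNF-α. The general treatment text of the labels names thapsigargin and JQ1, whereas each library's own source label names TNF-α and the SCFA, and the groups follow the latter. All SCFA groups also received TNF-α, and cells with an SCFA alone were not analysed here. The harvest time after TNF-α of the TNPR and TNBU cultures is not given in the labels, and no TNF-α culture held for the added 24 h was analysed here, so time since TNF-α and the SCFA cannot be told apart in those groups. All libraries came from the same cell line.

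HOX genes encode homeodomain transcription factors and lie in the A, B, C and D clusters, each on its own chromosome. Along a cluster all genes read in the same direction, and the numbers run from 1 at the 3′ end, expressed early and towards the head in the embryo, to 13 at the 5′ end, expressed late and towards the tail. Genes with the same number in different clusters are paralogues, descended from the same ancestral gene. Cells of adult tissues and their lines tend to keep the HOX pattern of the body level they came from. In the kidney, the paralogues of number 11 are known for their need in the formation of the metanephric kidney. HOX proteins bind DNA together with the TALE cofactors of the PBX and MEIS families.

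The libraries held 27269986 to 33851130 counts (median 30545923), of which 5.86 to 9.46% lay on mitochondrial genes. HOX genes took 5841 to 13235 counts of a library, and 3 counts, the limit set for a gene at 0, corresponded to 0.0867 to 0.112 CPM (the count scaled to library size, here with the TMM factor for library composition). Such limits cover counting error only. The replicate libraries of TNPR and TNBU lay further apart than those of the other groups, with a chi-square per gene of 15.1 and 18.1 against 3.17 to 6.61. The tubular identity of the cells was checked against 16 proximal tubule and renal epithelium markers. PAX8, a renal epithelial transcription factor, stood at 403 CPM in TN. LRP2, SLC22A6, SLC22A8, ANPEP and HNF4A, among the defining genes of the differentiated proximal tubule, were at 0 in both TN libraries. Of the 13 markers tested, 6 rose and 5 fell in each SCFA group against TN (all genes 23.1 to 25% up and 14.8 to 16.9% down), and their summed level went from 914 to 969 CPM in the TN libraries to between 322 and 389 CPM in the SCFA libraries. Tested markers at 0 in TN, such as ANPEP and HNF4A, could be called only upwards.

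The HOXA cluster (11 genes) lies on chromosome 7 and the HOXB cluster (10 genes) spans chr17:48528526-48728750, both on the minus strand, and the HOXC cluster (9 genes) spans chr12:53938831-54056030 and the HOXD cluster (9 genes) chr2:176092721-176190907, both on the plus strand (GRCh38, GENCODE 44). The spans of HOXB, HOXC and HOXD were 200.2, 117.2 and 98.2 kb, and 98404 bp of the HOXB span is the gap between HOXB9 and HOXB13. Exons of neighbouring HOX genes overlap in the annotation, and 16 of the 39 genes share exon bases with another gene of the same strand. HOXC5 shares 67.3% of its exon bases, HOXA4 31.3%, and HOXD10 and HOXD11 share 452 bp with each other, so the division of reads between such genes is an estimate. A further overlap lies on the opposite strand in 20 genes, among them HOXA7 (62.5% of its exon bases lie over HOXA-AS3) and HOXD1 (60.1%, mostly over HAGLR). The libraries were made with a stranded kit, but the strand setting of the counting is not given in the sources used here, so reads of such antisense pairs may not be separated.

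The following 4 upstream sequences are shown because they belong to genes that moved in opposite directions under the SCFAs, HOXA13 and HOXD1 upwards and HOXA9 and HOXD10 downwards. Each is the 250 bases before the start that RefSeq lists for the gene, read 5′ to 3′ on the gene's strand (RefSeq, GRCh38.p14): HOXA13 at chr7:27200092-27200341 on the minus strand, HOXD1 at chr2:176188418-176188667 on the plus strand, HOXA9 at chr7:27165538-27165787 on the minus strand and HOXD10 at chr2:176116528-176116777 on the plus strand. By GENCODE 44, which gives HOXA9 and HOXD10 longer spans, the stretches of these genes lie inside the gene. Capitals mark each CG, the dinucleotide that can carry DNA methylation and is dense in CpG islands.
HOXA13: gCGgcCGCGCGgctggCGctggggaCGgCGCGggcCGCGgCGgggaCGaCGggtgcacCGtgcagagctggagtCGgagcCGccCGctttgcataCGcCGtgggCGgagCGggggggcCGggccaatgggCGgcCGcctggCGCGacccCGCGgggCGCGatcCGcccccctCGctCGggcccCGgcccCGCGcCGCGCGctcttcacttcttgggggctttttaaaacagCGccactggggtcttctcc
HOXD1: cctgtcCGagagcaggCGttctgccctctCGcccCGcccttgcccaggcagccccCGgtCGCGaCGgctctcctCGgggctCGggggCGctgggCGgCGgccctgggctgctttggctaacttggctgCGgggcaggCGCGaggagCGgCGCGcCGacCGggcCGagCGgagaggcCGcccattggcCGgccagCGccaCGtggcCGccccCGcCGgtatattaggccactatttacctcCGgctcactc
HOXA9: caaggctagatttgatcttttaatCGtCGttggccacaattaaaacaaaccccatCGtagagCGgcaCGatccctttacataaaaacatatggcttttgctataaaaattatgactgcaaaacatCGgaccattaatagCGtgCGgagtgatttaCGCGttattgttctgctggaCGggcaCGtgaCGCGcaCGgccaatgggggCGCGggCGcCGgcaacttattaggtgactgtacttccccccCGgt
HOXD10: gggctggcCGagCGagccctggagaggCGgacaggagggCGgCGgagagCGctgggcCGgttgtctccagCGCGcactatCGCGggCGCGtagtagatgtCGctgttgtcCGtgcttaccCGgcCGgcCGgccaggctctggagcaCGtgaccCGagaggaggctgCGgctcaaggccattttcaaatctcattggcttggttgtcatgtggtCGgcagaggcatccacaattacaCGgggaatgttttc
The printed stretches hold 40 CG in HOXA13, 31 in HOXD1, 20 in HOXA9 and 23 in HOXD10. RefSeq's table gave a promoter window of 300 bases (250 before to 50 after the start) for 20 of the 39 HOX genes, of which 18 had 1 entry. Over that window the median over all 35116 promoters was 14 CG, with quartiles of 4 and 28. The 4 genes with 1 entry that rose against TN in each SCFA comparison held 44 (HOXA13), 36 (HOXD1), 34 (HOXD8) and 24 (HOXD13) CG, and the 7 with 1 entry that fell in each held 11 to 31 (median 23). The ranges overlap, and the 19 genes with no entry could not be placed. Of the 4 risers, HOXD13 was at 0 counts in TN and passed the filter on low counts only through the SCFA groups. The calls of HOXD1 rested on the first TN library, as set out below. The motif TATAAA, searched on both strands, was found in the windows of HOXA9 and HOXD13 among these 11 genes and in 11.5% of all promoters. GGGCGG, also searched on both strands, was found in 3 of the 4 risers (HOXA13, HOXD1 and HOXD13), in 4 of the 7 fallers (HOXA4, HOXA7, HOXD10 and HOXD11) and in 45.0% of all promoters. The cyclic AMP element TGACGTCA was in no HOX window and in 1.85% of all promoters. These matches describe letters and not bound sites.

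HK2 cells carried a HOXA-led pattern, and the summed HOX level was lower in every SCFA library than in every library without an SCFA. Per kilobase of exon, and averaged over the 6 groups, HOXA9 (15.0 CPM per kb) and HOXA10 (14.2) stood highest, and other genes with high levels were HOXA5 (5.97), HOXB9 (5.70) and HOXA7 (4.91). The highest in the other clusters were HOXD10 (4.43) and HOXC10 (3.55). The 39 genes summed to 448 ± 9.17 CPM (SD, n = 2) in Ctrl and 362 ± 0.991 in TN, and to 206 ± 4.02, 206 ± 1.82, 200.1 ± 6.60 and 203 ± 2.45 in the SCFA groups in the order PRTN, BUTN, TNPR and TNBU. HOXA held most of the difference, and no test was run on these sums. The HOXA sum went from 307 ± 10.2 CPM in Ctrl and 238 ± 2.79 in TN to 130.1 ± 3.37, 124 ± 0.452, 124 ± 4.75 and 121 ± 5.74 in PRTN, BUTN, TNPR and TNBU. HOXD went from 54.2 ± 1.42 and 46.1 ± 0.259 CPM to 18.8 ± 0.0252, 19.1 ± 0.779, 19.3 ± 1.48 and 20.4 ± 0.609, and HOXB from 72.8 ± 1.33 and 65.3 ± 1.29 CPM to 40.9 ± 1.04, 46.4 ± 2.41, 41.0 ± 0.242 and 45.1 ± 3.36. HOXC, the cluster with the lowest sum, stood at 13.8 ± 1.68 and 12.4 ± 0.244 CPM without an SCFA and at 15.8 ± 0.411, 16.0 ± 0.261, 15.6 ± 0.604 and 16.1 ± 0.679 with it. HOXA9 and HOXA10 made up 42.4% of the summed HOX level in Ctrl, 40.4% in TN and 29.9 to 31.6% in the SCFA groups. In bulk libraries such as these, fewer cells that express a gene and less of its RNA in each cell cannot be told apart.

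**Figure D1:**
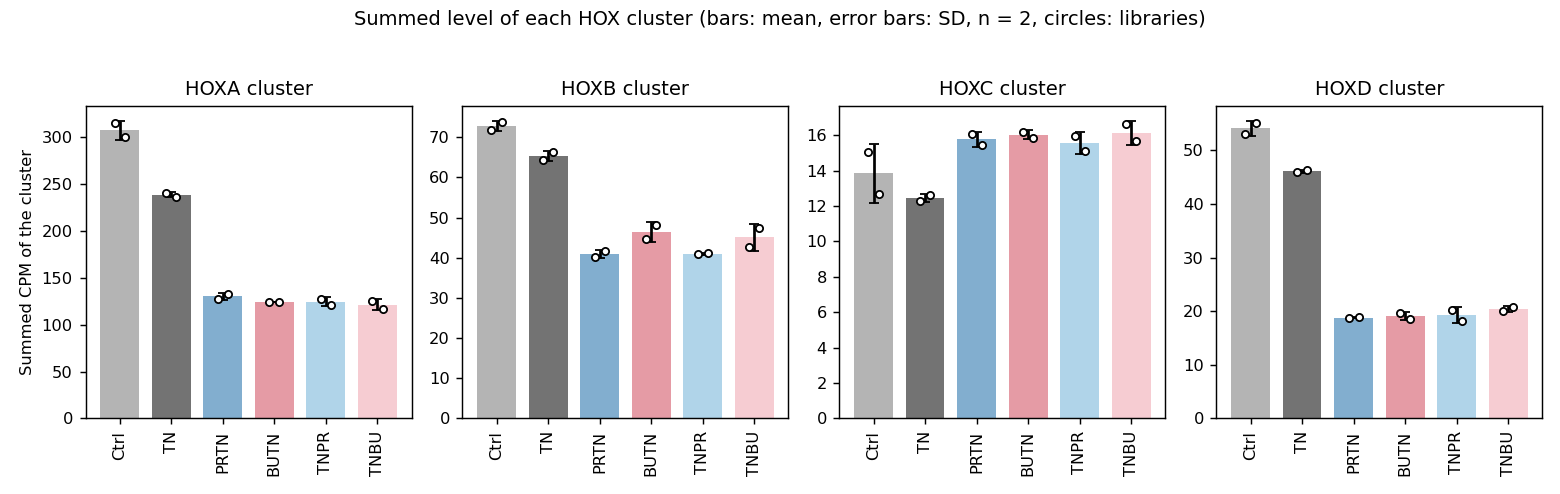
Summed CPM of the HOX genes of each cluster in the 6 groups. Bars are means of 2 libraries, error bars the SD and circles the libraries, and the HOXA bar goes from 238 CPM in TN to between 121 and 130.1 CPM in the SCFA groups while the HOXC bar is no lower.

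TNF-α alone, compared with untreated cells, moved no HOX gene past the study's criteria of over 1.5-fold and an adjusted p under 0.05 (limma-voom, 37 of the 39 genes tested). This gave 0 genes up, where 0.764% of all 24342 genes tested passed, and 0 down, where 0.534% passed. Those shares are 186 genes up and 130 down. The study reported more genes in each direction for this comparison at the same criteria. Its call numbers were thus not reproduced, and the HOX counts given here are those of this fit. At an unadjusted p under 0.05 the counts were 0 up (8.71% of all genes were up at that level) and 13 down (8.3%). The quasi-likelihood test of edgeR gave 0 calls, with 1 gene up and 11 down unadjusted, and DESeq2 gave 0 calls, with 0 up and 7 down unadjusted. At any fold size, 5 HOX genes had an adjusted p under 0.05 and were lower in TN, all of the HOXA cluster and each by under 1.5-fold, and 0 were higher (all genes 1.25% lower and 2.26% higher). HOXA10, highest of the HOX genes by CPM, stood at 99.8 and 95.3 CPM in Ctrl and at 75.9 and 75.9 in TN (log2 fold change -0.36, SE 0.06, adjusted p = 0.00396). HOXA3 stood at 37.0 and 38.1 CPM in Ctrl and 26.6 and 27.8 in TN (log2 fold change -0.47, SE 0.08, adjusted p = 0.00594). The others were HOXA7 (log2 fold change -0.40, adjusted p = 0.0126), HOXA5 (-0.45, adjusted p = 0.0157) and HOXA9 (-0.40, adjusted p = 0.0346). These 5 were picked out after their values were seen, and when Ctrl and TN were fitted without the other groups the smallest adjusted p of any HOX gene was 0.0709. The TN libraries lay below both Ctrl libraries for 18 of the 37 genes, against 23.8% of all genes, and above both for 2, against 23.1%. The median log2 fold change was -0.23 over the HOX genes and -0.01 over all genes, and the HOX median was -0.13 without the first Ctrl library.

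**Figure D2:**
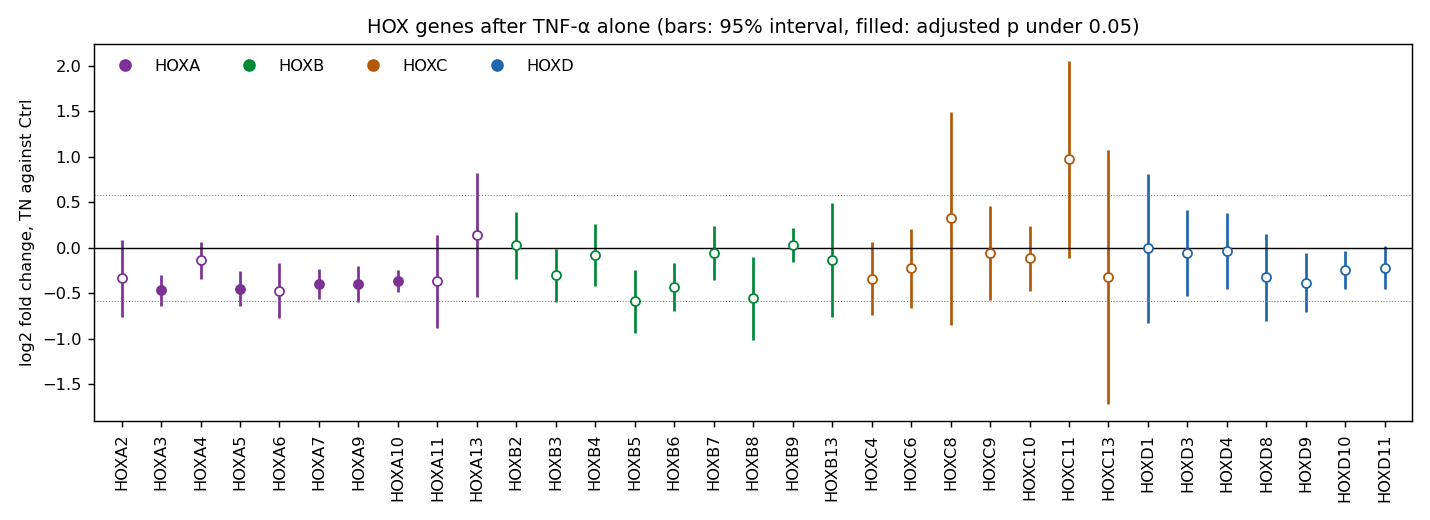
Log2 fold change of TN against Ctrl for 33 HOX genes with counts in TN, ordered by cluster and number, with 95% intervals. Filled points have an adjusted p under 0.05 and are HOXA3, HOXA5, HOXA7, HOXA9 and HOXA10, at log2 fold changes between -0.47 and -0.36.

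With an SCFA, many HOX genes moved, in both directions, and the genes that fell were those that carried most of the HOX signal. PRTN against TN had 9 of the 37 HOX genes up, where 23.9% of all genes rose, and 19 down, where 16.7% fell. BUTN had 9 up (all genes 23.1%) and 16 down (14.8%), TNPR had 10 up (24.9%) and 20 down (16.9%), and TNBU had 9 up (25%) and 18 down (16.5%). The share of HOX genes that rose (24.3 to 27%) was near that of all genes, and the share that fell (43.2 to 54.1%) was above it. The 4 comparisons share the 2 TN libraries, so their likeness to each other is not independent. HOXC5, HOXC12 and HOXD13 were at 0 in both TN libraries, and HOXC12 and HOXD13 passed the filter on low counts only through the SCFA groups. Without the 3, the counts over 34 genes were 7 up in each comparison and 19, 16, 20 and 18 down. A filter on the geometric mean with no count added, chosen after the data were seen, also left them out and gave 7 up and 20, 16, 20 and 18 down of 34. The median log2 fold change over the HOX genes was -0.69, -0.46, -0.78 and -0.68 in PRTN, BUTN, TNPR and TNBU, against 0.09, 0.08, 0.12 and 0.09 over all genes, and -0.69, -0.49, -0.78 and -0.74 with genes at 0 in TN set to their lower bound. HOX genes at 10 CPM and over, where all genes of that level had 18% up and 23.2% down in PRTN, had 7 of 8 down in each comparison. Those at 1 to 10 CPM had 6 of 24 up and 12 down in PRTN, against 35.8% and 21.9%.

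Listed side by side, 9 genes were up in each of the 4 comparisons, among them HOXA13, HOXB13, HOXC10, HOXC12, HOXC13, HOXD1, HOXD8 and HOXD13, and HOXA2, HOXA3, HOXA4, HOXA5, HOXA7, HOXA9, HOXA10, HOXB2, HOXB7, HOXB9, HOXC4, HOXC6, HOXC9, HOXD9, HOXD10 and HOXD11 were down in each. The 9 risers summed to 18.5 CPM in Ctrl and 18.4 in TN and to 45.7 to 52.0 in the SCFA groups. The 16 fallers summed to 379 CPM in Ctrl, 304 in TN and 118 to 125 in the SCFA groups. In TN the risers had a median of 0.947 CPM and the fallers of 10.2 CPM. Every gene called down lay below all 4 libraries without an SCFA in both libraries of its SCFA group, and every gene called up lay above them, with the exception of HOXC5 in TNPR. These genes were called against the same TN libraries, so their separation from TN follows in large part from the call. The share of all called genes placed in this way is not given here, and the placing is a description. Among the 21 tested genes that share no exon bases on their own strand, the counts up and down were 7 and 9 (PRTN), 7 and 7 (BUTN), 7 and 9 (TNPR) and 7 and 9 (TNBU). The 7 up include HOXC12 and HOXD13, which were at 0 in TN and passed the filter only through the SCFA groups. Over all genes 23.1 to 25% rose and 14.8 to 16.9% fell.

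**Figure D3:**
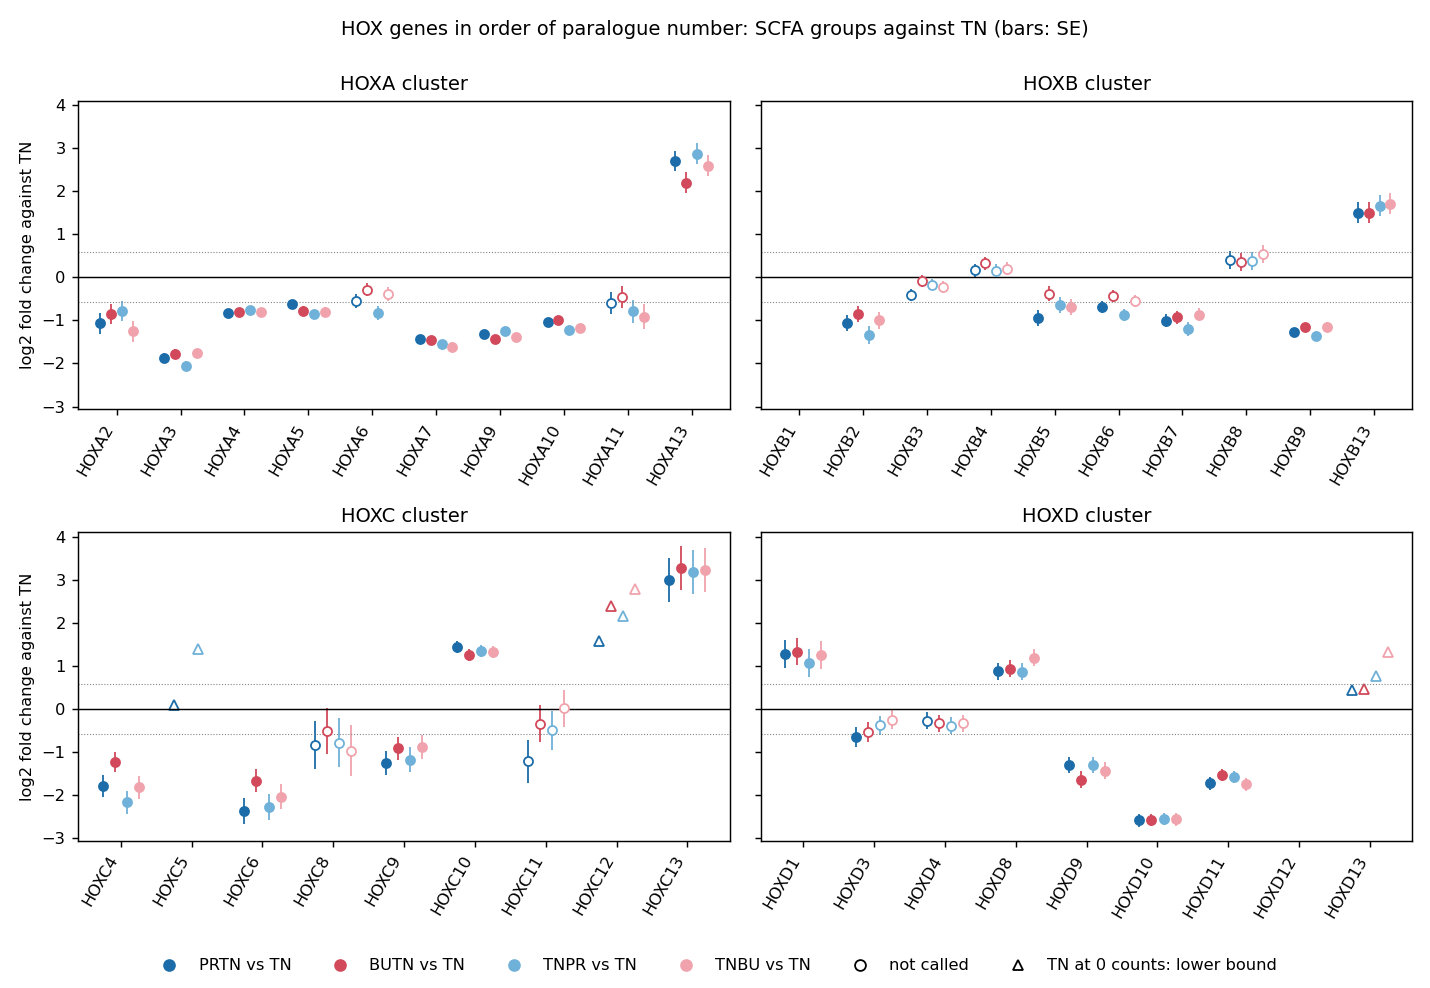
Log2 fold change against TN of the HOX genes, in a panel for each cluster with the genes by number along the x axis, for PRTN, BUTN, TNPR and TNBU, with SE bars. Filled points passed 1.5-fold and an adjusted p of 0.05, open points did not, and triangles mark lower bounds where TN was at 0. The number 13 genes and HOXD1 lie above 0, and the number 9 genes lie below 0.

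The number 13 genes, which pattern the tail end of the trunk, the distal limb and the lower urogenital tract, rose in each comparison for the 3 members with counts in TN. HOXA13 is known for hand, foot and genital development and has its start next to the chr7:27200092-27200341 sequence above. HOXA13 lay at 0.790 and 0.896 CPM (Ctrl), 0.745 and 1.15 (TN), 5.82 and 6.45 (PRTN), 4.13 and 4.48 (BUTN), 6.75 and 7.07 (TNPR) and 5.18 and 6.21 (TNBU). Every SCFA library was above every library without an SCFA, by several-fold. The log2 fold changes against TN were 2.70, 2.19, 2.87 and 2.59 in PRTN, BUTN, TNPR and TNBU (SE 0.24, adjusted p 4.98e-07 to 8.62e-06), or 4.57 to 7.31-fold. HOXB13, known for its role in the prostate, lies apart from the rest of its cluster at chr17:48724763-48728750. HOXB13 lay at 1.17 and 2.12 CPM (Ctrl), 1.41 and 1.44 (TN), 4.46 and 3.68 (PRTN), 3.94 and 4.19 (BUTN), 4.35 and 4.77 (TNPR) and 4.73 and 4.65 (TNBU). The SCFA libraries did not overlap with the others, and the highest of the latter was a Ctrl library. Its log2 fold changes were 1.5, 1.5, 1.66 and 1.70 (SE 0.24, adjusted p 5.78e-05 to 1.87e-04). HOXC13, needed for hair and nails, rested on few counts without an SCFA, 4 and 10 in the TN libraries. HOXC13 lay at 0.481 and 0.179 CPM (Ctrl), 0.149 and 0.359 (TN), 2.29 and 1.73 (PRTN), 2.88 and 2.05 (BUTN), 2.28 and 2.27 (TNPR) and 2.59 and 2.15 (TNBU). Its 8 SCFA libraries stood well above the other 4. The log2 fold changes were 2.99, 3.27, 3.18 and 3.23 (SE 0.51, adjusted p 1.36e-04 to 2.72e-04), the largest rise of a HOX gene with counts in TN.

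HOXD13, the fourth of its number and known for digit formation, had 0 counts in the Ctrl and TN libraries and summed counts of 5, 5, 6 and 8 in PRTN, BUTN, TNPR and TNBU. Set against the limit of 3 counts over the 2 TN libraries, it was at least 1.35, 1.37, 1.68 and 2.49-fold higher, so the bound lay under 1.5-fold in PRTN and BUTN. HOXD13 was called up in each comparison, yet DESeq2 did not call it in any (adjusted p 0.108 to 0.224), and the call was lost in PRTN, BUTN and TNPR without either TN library (adjusted p 0.0671 to 0.152) in PRTN and BUTN when only the groups compared were fitted (adjusted p = 0.130 and 0.0682) and in PRTN and BUTN without their first library (adjusted p = 0.280 and 0.114). HOXC12, next to HOXC13, was likewise at 0 in Ctrl and TN, with summed counts of 11, 19, 16 and 22 in the SCFA groups. It was at least 2.98, 5.21, 4.49 and 6.84-fold higher, and its call in PRTN was lost without the second TN library (adjusted p = 0.0553). HOXC5 had 4.77 and 4.57 expected counts in the TNPR libraries against 0 in TN, at least 2.62-fold higher, and its call there was lost under DESeq2 (adjusted p = 0.156), without either TN library (adjusted p = 0.0952 and 0.107) and without the second TNPR library (adjusted p = 0.0516). All of these members were detected with few counts.

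At the other end of the HOXD cluster, HOXD1 rose. It lies at chr2:176188668-176190907 and overlaps the antisense RNA HAGLR, which rose as well. HOXD1 lay at 0.584 and 0.645 CPM (Ctrl), 0.467 and 0.790 (TN), 1.65 and 1.37 (PRTN), 1.91 and 1.30 (BUTN), 1.31 and 1.28 (TNPR) and 1.51 and 1.46 (TNBU). All 8 SCFA libraries were above the other 4, of which the second TN library was the highest. The log2 fold changes were 1.27, 1.33, 1.06 and 1.25 in PRTN, BUTN, TNPR and TNBU (SE 0.32 to 0.33, adjusted p 0.00322 to 0.0139). The calls of HOXD1 rested on the first TN library, without which they were lost in all 4 comparisons (log2 fold changes 0.88, 0.94, 0.67 and 0.88, adjusted p = 0.0636, 0.0516, 0.152 and 0.0673), and DESeq2 did not call it in TNPR (adjusted p = 0.0704).

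HOXC10 and HOXD8 were the risers away from the cluster ends with counts in TN. HOXC10, known for the patterning of the lumbar spinal cord and hindlimb, had the highest level per kilobase of its cluster and lies at chr12:53985065-53990279. HOXC10 lay at 4.88 and 4.08 CPM (Ctrl), 4.73 and 3.62 (TN), 11.1 and 11.1 (PRTN), 9.70 and 10.0 (BUTN), 10.8 and 10.1 (TNPR) and 10.8 and 9.99 (TNBU). The SCFA libraries were all above the rest, with no overlap. Its log2 fold changes were 1.43, 1.25, 1.34 and 1.33 (SE 0.14, adjusted p 2.28e-06 to 9.65e-06), or 2.38 to 2.69-fold. HOXD8 stood at 2.33 to 3.81 CPM in the 4 libraries without an SCFA and at 4.24 to 5.75 CPM in the 8 with it, with log2 fold changes of 0.87, 0.93, 0.86 and 1.19 (SE 0.20, adjusted p 2.34e-04 to 0.00279).

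**Figure D4:**
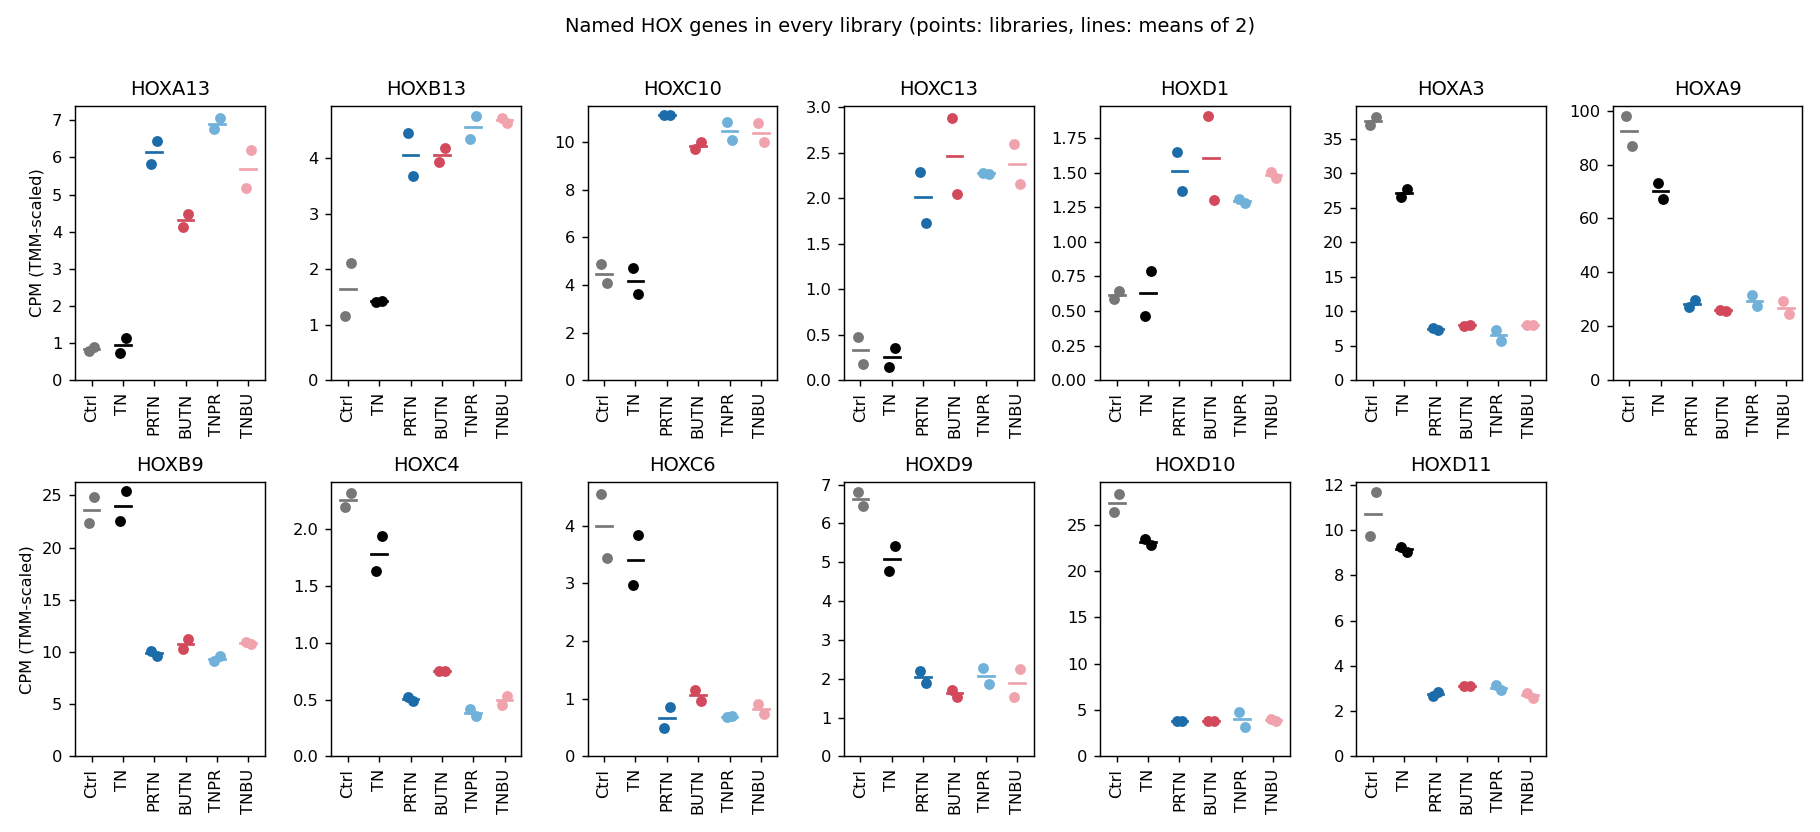
CPM in each of the 12 libraries for 13 HOX genes given with the values of every library, grouped as Ctrl, TN, PRTN, BUTN, TNPR and TNBU, with lines at the mean of 2. HOXC13 lies at 0.149 to 0.481 CPM without an SCFA and at 1.73 to 2.88 with it, and HOXD10 at 22.8 to 28.3 CPM without and at 3.20 to 4.79 CPM with it.

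The falls took in the genes with the highest levels. HOXA9, known for blood stem cells and for acute leukaemia, lies at chr7:27162438-27175180. HOXA9 lay at 98 and 87.0 CPM (Ctrl), 73.3 and 67.3 (TN), 27 and 29.6 (PRTN), 26.1 and 25.6 (BUTN), 31.5 and 27.4 (TNPR) and 29.2 and 24.5 (TNBU). The order was Ctrl, then TN, then the SCFA libraries, with no overlap between these sets. Its log2 fold changes against TN were -1.31, -1.44, -1.26 and -1.39 in PRTN, BUTN, TNPR and TNBU (SE 0.10, adjusted p 1.62e-07 to 3.42e-07), or 2.39 to 2.71-fold lower. HOXA10, known for the patterning of the uterus, stood at 75.9 to 99.8 CPM without an SCFA and at 31.9 to 38.7 CPM with an SCFA, with log2 fold changes of -1.05, -0.99, -1.22 and -1.17. HOXA3, needed for the thymus and parathyroid, lies at chr7:27106184-27152583. HOXA3 lay at 37.0 and 38.1 CPM (Ctrl), 26.6 and 27.8 (TN), 7.58 and 7.33 (PRTN), 7.86 and 8.04 (BUTN), 7.32 and 5.76 (TNPR) and 8.02 and 7.97 (TNBU). The TN libraries lay between Ctrl and the SCFA libraries, and the second TNPR library was the lowest. HOXA3 had log2 fold changes of -1.86, -1.77, -2.06 and -1.76 (SE 0.10 to 0.11, adjusted p 8.81e-09 to 2.89e-08). HOXA7, whose exons lie largely over HOXA-AS3, was at 18.7 to 25.5 CPM without an SCFA and at 5.97 to 7.33 with it, with log2 fold changes of -1.43, -1.45, -1.56 and -1.61. HOXA2, HOXA4 and HOXA5 had smaller falls, with log2 fold changes of -1.07, -0.86, -0.78 and -1.26 for HOXA2, -0.84, -0.81, -0.76 and -0.81 for HOXA4 and -0.62, -0.78, -0.86 and -0.80 for HOXA5. The call of HOXA2 was lost in BUTN without its second library (adjusted p = 0.0965) and in TNPR without the first TN library (adjusted p = 0.0693), and that of HOXA5 fell under 1.5-fold in PRTN without its first library (log2 fold change -0.58) and with library size alone in place of TMM (-0.46).

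In the HOXD cluster the fall covered the run from HOXD9 to HOXD11, genes known for the patterning of the forearm and of the lower trunk. HOXD10 had the largest fall of any HOX gene in each comparison. HOXD10 lay at 26.4 and 28.3 CPM (Ctrl), 23.5 and 22.8 (TN), 3.86 and 3.8 (PRTN), 3.82 and 3.88 (BUTN), 4.79 and 3.20 (TNPR) and 4.04 and 3.78 (TNBU). All SCFA libraries were far below the other 4, and among the SCFA groups the TNPR libraries lay furthest from each other. The log2 fold changes were -2.59, -2.58, -2.55 and -2.56 (SE 0.14 to 0.15, adjusted p 1.59e-08 to 2.70e-08), or 5.86 to 6.02-fold lower. HOXD11, of the number 11 genes known from kidney formation, shares exon bases with HOXD10. HOXD11 lay at 9.73 and 11.7 CPM (Ctrl), 9.26 and 9.04 (TN), 2.65 and 2.86 (PRTN), 3.13 and 3.12 (BUTN), 3.15 and 2.94 (TNPR) and 2.83 and 2.59 (TNBU). Here too the sets did not overlap. Its log2 fold changes were -1.73, -1.55, -1.58 and -1.75 (SE 0.14 to 0.15, adjusted p 5.59e-07 to 1.34e-06). HOXD9 was lower by a smaller factor. HOXD9 lay at 6.80 and 6.45 CPM (Ctrl), 4.77 and 5.42 (TN), 2.20 and 1.89 (PRTN), 1.72 and 1.53 (BUTN), 2.28 and 1.85 (TNPR) and 1.54 and 2.26 (TNBU). Ctrl libraries were above TN libraries, and both were above all SCFA libraries. HOXD9 had log2 fold changes of -1.31, -1.64, -1.30 and -1.43 (SE 0.19 to 0.20, adjusted p 1.83e-05 to 6.94e-05).

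In HOXC, HOXC4, HOXC6 and HOXC9 fell from low levels. HOXC6 shares exon bases with HOXC4 and HOXC9. HOXC6 lay at 4.55 and 3.44 CPM (Ctrl), 2.98 and 3.84 (TN), 0.492 and 0.852 (PRTN), 1.16 and 0.964 (BUTN), 0.681 and 0.704 (TNPR) and 0.911 and 0.730 (TNBU). The 8 SCFA libraries were below the rest, the PRTN libraries lowest on average. Its log2 fold changes were -2.37, -1.67, -2.27 and -2.04 (SE 0.27 to 0.31, adjusted p 2.62e-05 to 1.66e-04). HOXC4 stands at the 3′ end of its cluster, at chr12:54016931-54056030. HOXC4 lay at 2.19 and 2.31 CPM (Ctrl), 1.63 and 1.94 (TN), 0.521 and 0.487 (PRTN), 0.751 and 0.751 (BUTN), 0.415 and 0.352 (TNPR) and 0.455 and 0.531 (TNBU). No SCFA library reached the lowest TN library. HOXC4 had log2 fold changes of -1.79, -1.23, -2.17 and -1.82 (SE 0.23 to 0.28, adjusted p 2.24e-05 to 5.85e-04). HOXC9, known for the identity of thoracic motor neurons, had log2 fold changes of -1.25, -0.91, -1.18 and -0.88, and its call was lost in BUTN and TNBU without the first TN library (adjusted p = 0.0593 and 0.0733) or without the first library of the SCFA group (adjusted p = 0.0871 and 0.0656), and under DESeq2 (adjusted p = 0.0754 and 0.0787). In HOXB, HOXB9 had the highest level per kilobase. HOXB9 lay at 22.3 and 24.9 CPM (Ctrl), 22.6 and 25.5 (TN), 10.1 and 9.64 (PRTN), 10.3 and 11.2 (BUTN), 9.12 and 9.63 (TNPR) and 10.9 and 10.8 (TNBU). Ctrl and TN libraries overlapped, and the SCFA libraries were all below them. HOXB9 had log2 fold changes of -1.28, -1.16, -1.36 and -1.14 (SE 0.10, adjusted p 1.76e-07 to 7.70e-07). HOXB2, which acts in the hindbrain, had log2 fold changes of -1.06, -0.86, -1.33 and -1.0, and HOXB7 of -1.01, -0.93, -1.20 and -0.87.

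The remaining members were mixed. HOXA6 passed the test in TNPR (log2 fold change -0.82), HOXA11 in TNPR (-0.79) and TNBU (-0.91), HOXB5 in PRTN (-0.95), TNPR (-0.65) and TNBU (-0.68), HOXB6 in PRTN (-0.69) and TNPR (-0.87) and HOXD3 in PRTN (-0.66). In the comparisons where they missed, the values were -0.55, -0.29 and -0.38 for HOXA6, -0.60 and -0.46 for HOXA11, -0.38 for HOXB5, -0.43 and -0.56 for HOXB6 and -0.54, -0.39 and -0.25 for HOXD3, all below 0. The calls of HOXA11 and HOXB5 in TNPR and TNBU were lost without the second TN library (adjusted p 0.0550 to 0.104), that of HOXA11 in TNPR or TNBU also without that group's second library (adjusted p = 0.159 and 0.243), that of HOXB5 in TNPR also without its second library (adjusted p = 0.0738), and that of HOXD3 without the first PRTN or the second TN library (adjusted p = 0.248 and 0.201). HOXD3 in PRTN was also not called by DESeq2 (adjusted p = 0.113), with library size alone (0.0833) or when only the groups compared were fitted (0.0644), the fit in which HOXA11 was lost in TNBU (adjusted p = 0.0555). Library size alone took HOXB5 under 1.5-fold in TNPR and TNBU (log2 fold changes -0.48 and -0.49) and HOXB6 in PRTN (-0.53), and HOXA11 in TNPR then missed the test (adjusted p = 0.0670). HOXB3, HOXB4, HOXB8, HOXC8, HOXC11 and HOXD4 passed in no comparison. Of these, HOXB3, HOXB4, HOXB8 and HOXD4 had log2 fold changes between -0.40 and 0.55, while HOXC8 and HOXC11 stood at 0.0913 to 0.467 CPM in the TN and SCFA libraries, a few counts each. Of the number 11 genes, HOXD11 thus fell in each comparison, HOXA11 passed in TNPR and TNBU alone and on few libraries, and HOXC11 in none. HOXB1 (0 to 1 count in every library) and HOXD12 (0 to 3 counts) did not pass the filter on low counts.

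Set out by place, the genes that rose lay mostly at the ends of the clusters and those that fell inside them. Of the 8 genes at a cluster end, 7 were tested, and 6 of these rose in each comparison (among them HOXB13, HOXC13 and HOXD13), while HOXC4 fell. HOXD13 passed the filter only through the SCFA groups, and without it 5 of 6 rose, with medians of 1.44, 1.41, 1.5 and 1.48. The calls of the end genes HOXD1 and HOXD13 rested on the libraries named above. All 7 end genes had a median log2 fold change of 1.5, 1.5, 1.66 and 1.70 in PRTN, BUTN, TNPR and TNBU, or 1.39, 1.33, 1.33 and 1.31 with HOXD13 at its lower bound. Of the 30 tested genes inside the clusters, 3, 3, 4 and 3 rose and 18, 15, 19 and 17 fell, with a median of -0.89, -0.66, -0.80 and -0.84. By number, 3 of 3 genes of number 13 with counts in TN rose and 4 of 4 of number 9 fell, while number 10 was split, with HOXC10 up and HOXA10 and HOXD10 down. Some HOX genes that follow each other by number in a cluster were called in opposite directions in each comparison. In such pairs the distance between the annotated spans was 4615 bp for HOXC9 and HOXC10, 4756 bp for HOXD8 and HOXD9, and 98404 bp for HOXB9 and HOXB13. These stretches are not all free of other genes. The span of HOXC6 covers most of that between HOXC9 and HOXC10. Between HOXB9 and HOXB13 lie PRAC1, PRAC2 and part of the HOXB7 span. By cluster, the counts up and down were 2 and 7 (PRTN), 2 and 7 (BUTN), 2 and 9 (TNPR) and 2 and 8 (TNBU) for the 11 HOXA genes, 1 and 5 (PRTN), 1 and 3 (BUTN), 1 and 5 (TNPR) and 1 and 4 (TNBU) for 9 HOXB genes, 3 and 3 (PRTN), 3 and 3 (BUTN), 4 and 3 (TNPR) and 3 and 3 (TNBU) for 9 HOXC genes and 3 and 4 (PRTN), 3 and 3 (BUTN), 3 and 3 (TNPR) and 3 and 3 (TNBU) for 8 HOXD genes. The HOXC counts up include HOXC12 in each comparison and HOXC5 in TNPR, and the HOXD counts up include HOXD13. All of these were at 0 in both TN libraries. Over all genes 23.1 to 25% rose and 14.8 to 16.9% fell. The grouping by place was made with the values known and is a description, with no test.

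Propionate and butyrate, the latter with the longer carbon chain, were given at different doses, so the values are set side by side as those of 15 mM and 3 mM and not as those of the acids at matched dose. No HOX gene passed the criteria in PRTN against BUTN (all genes 0.0411% up and 0.127% down) or in TNPR against TNBU (0% up and 0.00822% down). At an unadjusted p under 0.05 there were 2 up and 2 down in the former (all genes 6.61% and 7.43%) and 0 up and 2 down in the latter (4.54% and 4.08%), and edgeR and DESeq2 also gave 0 calls. HOXA13 was higher in PRTN than in BUTN without passing the test (log2 fold change 0.51, 95% interval 0.20 to 0.81, adjusted p = 0.129). HOXB5 (log2 fold change -0.57) and HOXB3 (-0.32) were lower at an unadjusted p under 0.05. These genes were picked out after their values were seen. The 95% interval lay within 1.5-fold either way for 19 of 37 genes in PRTN against BUTN and for 18 in TNPR against TNBU, so for the others a difference of that size was not bounded by these libraries.

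The order of SCFA and TNF-α was compared in the same way. No HOX gene passed in TNPR against PRTN (all genes 0.0534% up and 0.107% down), with 0 up and 2 down at an unadjusted p under 0.05 (5.44% and 5.77% of all genes) and a smallest adjusted p of 0.342. In TNBU against BUTN, where 0.0945% of all genes rose and 0.173% fell, again none passed, with 1 up and 1 down unadjusted (6.13% and 8.31% of all genes). HOXA10 had the smallest adjusted p there (log2 fold change -0.18, 95% interval -0.32 to -0.04, adjusted p = 0.230). The intervals lay within 1.5-fold either way for 21 and 19 of 37 genes. The difference between the 2 timing effects, tested as an interaction, was called for none of the 37 (0% of all genes up and 0% down), with 0 genes at an unadjusted p under 0.05 (2.29% and 1.55% of all genes up and down). edgeR and DESeq2 gave 0 calls in each of these contrasts as well.

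**Figure D5:**
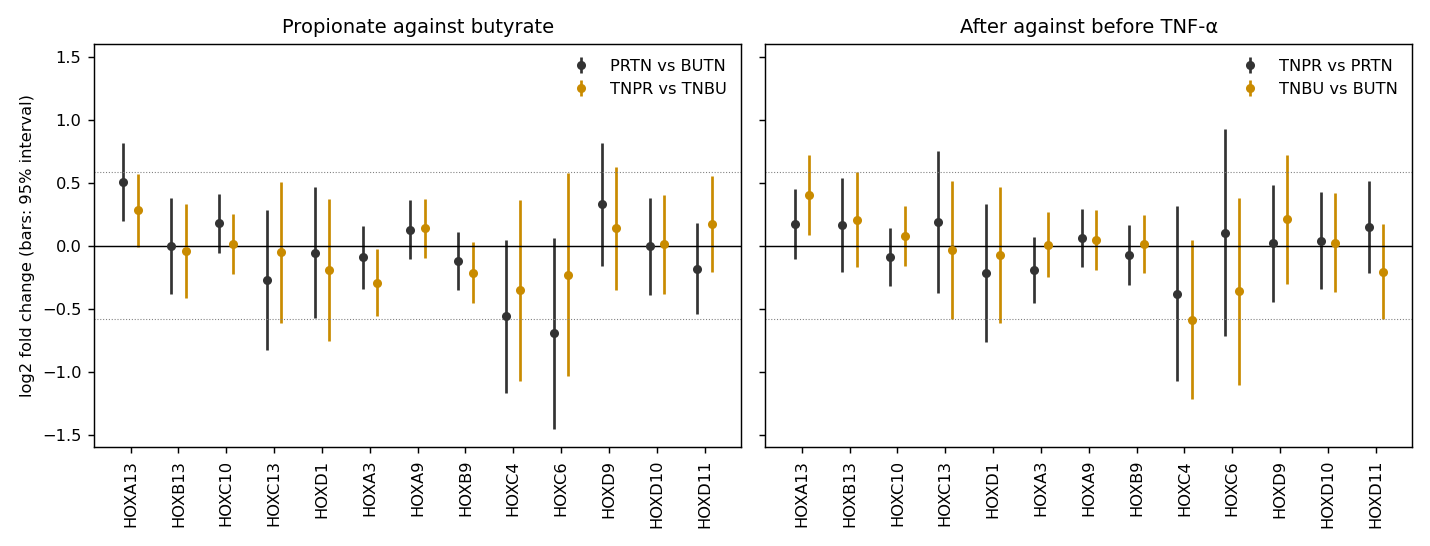
Log2 fold changes with 95% intervals of 13 named HOX genes between SCFAs (PRTN against BUTN, TNPR against TNBU) and between orders of treatment (TNPR against PRTN, TNBU against BUTN). None passed the criteria, and the values lie between -0.70 and 0.51, against up to 3.27 for the same genes between SCFA groups and TN.

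Genes that act with the HOX clusters were counted against the share of all genes called, which was 23.1 to 25% up and 14.8 to 16.9% down over the 4 SCFA comparisons. Of the 9 TALE cofactors, 3 rose and 2 fell in each SCFA comparison, and none was called in TN against Ctrl. MEIS2, a well known HOX partner, averaged 19.9 CPM in TN and 8.60, 9.26, 6.72 and 7.35 CPM in PRTN, BUTN, TNPR and TNBU (log2 fold changes -1.21, -1.10, -1.56 and -1.44). PBX4 rose from 4.39 (TN) to 8.24 (PRTN) and 7.83 CPM (TNBU), PBX2 fell from 118 (TN) to 68.4 (PRTN) and 67.1 CPM (TNBU), and another riser, PKNOX2, was listed at 0 in both TN libraries. Of 18 long noncoding RNAs of the clusters, 17 were tested (HOXC13-AS was not), with counts up and down of 2 and 6 (PRTN), 2 and 3 (BUTN), 3 and 7 (TNPR) and 3 and 5 (TNBU) and none in TN against Ctrl. HOXA-AS2, which lies opposite HOXA3 and HOXA4, went from 12.8 (TN) to 3.07 (PRTN) and 3.33 CPM (TNBU), HOXA10-AS from 5.54 (TN) to 1.52 (PRTN) and 1.55 CPM (TNBU), and HOXD-AS2, which lies opposite HOXD8, from 1.64 (TN) to 0.285 (PRTN) and 0.507 CPM (TNBU). HAGLR, opposite HOXD1, rose from 11.6 (TN) to 19.1 (PRTN) and 21.6 CPM (TNBU). Of the trithorax-type MLL complex, CTCF and CDX genes, which maintain or set up HOX expression, 9 of 12 were tested, with counts up and down of 1 and 2 (PRTN), 0 and 2 (BUTN), 2 and 2 (TNPR) and 1 and 2 (TNBU). CTCF, the insulator protein that bounds chromatin domains, fell from 101 (TN) to 55.9 (PRTN) and 51.6 CPM (TNBU), KMT2B, an H3K4 methyltransferase, from 61.9 (TN) to 35.2 (PRTN) and 31.6 CPM (TNBU), and DPY30, a subunit of these complexes, rose from 23.0 (TN) to 35.7 (PRTN) and 35.5 CPM (TNBU) in these groups.

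Markers of other cell types moved with the SCFA groups too, and their part in the HOX results was not tested. The lists are short, and the share of all genes called was 23.1 to 25% up and 14.8 to 16.9% down. A tested gene at 0 in both TN libraries could be called only upwards, and the counts of these lists include such genes. The fibroblast list had 4 of 5 tested genes up and 1 down in each SCFA comparison, and its sum went from 49.0 to 51.8 CPM in TN to 199.6 to 248 in the SCFA libraries. COL1A2 and PDGFRA of that list were at 0 in both TN libraries. COL1A2 was also at 0 in Ctrl and passed the filter on low counts only through the SCFA groups. The endothelial list had 3 of 3 tested genes up (4 listed), from 0.149 to 0.287 CPM in TN to 2.21 to 3.64 in the SCFA libraries, with KDR and VWF at 0 in TN. The leukocyte list had 3 of 3 tested genes up in PRTN and 2 of 3 in the others (5 listed), from 0.782 to 0.897 CPM in TN to 2.28 to 4.70 in the SCFA libraries, and PTPRC and CD3E were at 0 in both TN libraries. The neuron list had 3 of 3 up, from 24.9 to 27.7 CPM in TN to 57.1 to 67.4 in the SCFA libraries. Of 5 general epithelial markers, 4 rose and 1 fell in PRTN, BUTN and TNBU, and 3 rose and 1 fell in TNPR, and their sum went from 1116 to 1168 CPM in TN to 1729 to 2318 in the SCFA libraries. KRT8 and KRT18, keratins of simple epithelia, stood at 725 and 355 CPM in TN and at 1387 and 723 CPM in PRTN, CDH1 (E-cadherin) at 0.109 and 13.8 CPM, and EPCAM at 57.1 and 19.7 CPM.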

How the data were processed

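The HK2 libraries were prepared by the authors with the TruSeq Stranded mRNA kit and sequenced on a HiSeq instrument. The deposited values are RSEM expected counts per gene, from STAR 2.6.1a alignments to GRCh38 with GENCODE 26 and FastQC 0.11.5, per the labels and the study's methods. The RSEM version and strand setting are not given in the sources used here. RSEM divides reads that fit several genes, so values of overlapping genes are estimates.

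Counts were kept for genes whose geometric mean of count plus 1, minus 1, was at least 1 (24342 of 58278, with 33936 removed). The study's methods state a geometric mean of at least 1 and no added count, which was tried as an alternative after the data were seen (19096 genes). Counts were normalised by TMM (factors 0.913 to 1.06) and fitted across all 12 libraries with limma-voom (limma 3.58.1, edgeR 4.0.16, R 4.3.3), as in the study's methods. The expected counts were rounded to whole numbers only for DESeq2 1.42.0 and the edgeR quasi-likelihood test, which served as alternatives. A gene was called at over 1.5-fold and a Benjamini-Hochberg adjusted p under 0.05, adjusted over all genes tested. Prior degrees of freedom were 6.12. With 2 libraries a group, spread is estimated across groups. SD and CPM were computed from the deposited counts, CPM per kb with GENCODE 44 exon lengths, and ranges of adjusted p run over the 4 SCFA groups against TN.

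Members and lists were chosen with earlier results of these data known. Genes given with the values of every library were, in each SCFA group against TN, the 5 called HOX genes with the largest rise and the 5 with the largest fall at 1 CPM or more in the higher group, and the HOX gene of each cluster with the highest level per kilobase. From each other list, counts and up to 5 members with the largest changes among those called at 1 CPM or more were taken. Some genes that fall under these rules are not reported here. Alternatives were the 2 other tests, library size without TMM, other filters, a 2-fold threshold, only the compared groups, a replicate block and leaving out each library. Replicate numbers did not pair libraries (correlation of deviations -0.0391 to 0.0841 over 15 pairs, 0 over 0.1). The fitting was tested on simulated data.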

Additional observations from a re-analysis of the deposited data

How the results depend on the processing

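Of 214 alternative values of the HOX call counts, 210 stayed within 1.5 times the reported count. With library size alone in place of TMM, 1 gene was down in TN against Ctrl (HOXB5, log2 fold change -0.64, adjusted p = 0.0446). A threshold of 2-fold left 9 down in BUTN, 13 in TNPR and 11 in TNBU, which follows from the stricter threshold. Leaving out each library in turn gave 7 to 9 up in PRTN, 7 to 9 in BUTN, 7 to 10 in TNPR and 8 to 10 in TNBU, and 18 to 22, 15 to 16, 18 to 21 and 17 to 18 down, with 0 calls in the other comparisons. The replicate block gave 9 up and 19 down in PRTN, 9 and 16 (BUTN), 10 and 20 (TNPR) and 9 and 18 (TNBU), and changed no count, although the replicate numbers are not known to pair libraries. edgeR gave these counts as well, and DESeq2 8 and 18, 8 and 15, 7 and 20, and 8 and 17. Library size alone moved the median log2 fold change of all genes from 0.09, 0.08, 0.12 and 0.09 to 0.24, 0.23, 0.29 and 0.29 in PRTN, BUTN, TNPR and TNBU, and the calls over all genes from 5620 up and 3613 down to 6579 and 2656 in BUTN, from 6067 and 4117 to 7232 and 3132 in TNPR and from 6094 and 4027 to 7329 and 2849 in TNBU, while the HOX counts were then 9 and 16, 9 and 16, 10 and 18, and 10 and 17. Of the log2 fold changes of named genes, 779 kept their direction and side of the threshold, 5 (all of HOXD1) kept their direction and missed it, and none turned. The named genes had mostly been chosen for the largest called changes in these data, so their calls were the least likely to be lost. Called genes outside that set, such as HOXD3, HOXD13 and HOXC9, lost calls as given above. Genes at a few counts a library (HOXC12, HOXD13, HOXC5, HOXC8 and HOXC11) were limited by depth, and groups of 2 by the number of libraries.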

Other observations

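Retinoic acid is a classical inducer of HOX genes in the embryo. Of 18 genes of its receptors and metabolism, 16 were tested, and the counts up and down against TN were 10 and 1 (PRTN), 9 and 0 (BUTN), 9 and 0 (TNPR) and 9 and 0 (TNBU), with none called in TN against Ctrl. In both TN libraries 3 of the 18 were at 0, and a tested gene at 0 could be called only upwards. CRABP1, at 0 in Ctrl and TN, passed the filter on low counts only through the SCFA groups. CYP26B1, which degrades retinoic acid, stood at 0.291 CPM in TN, 8.01 in PRTN and 7.79 in TNBU (log2 fold changes 4.78, 4.88, 4.78 and 4.74 in PRTN, BUTN, TNPR and TNBU). STRA6, which takes up retinol, stood at 0.768 CPM in TN, 4.47 in PRTN and 5.63 in TNBU, the binding protein CRABP2 at 54.9 CPM in TN, 125 in PRTN and 124 in TNBU and the retinol dehydrogenase RDH10 at 22.6 CPM in TN, 50.6 in PRTN and 44.9 in TNBU. The background of all genes was 23.9% up and 16.7% down in PRTN.

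Of 122 homeobox genes outside the HOX clusters, 83 were tested. Those up numbered 43, 44, 48 and 47 and those down 17 in all comparisons (PRTN, BUTN, TNPR and TNBU in turn), with a median log2 fold change of 1.08 in PRTN and 1.44 in TNBU. Over all genes 23.1 to 25% rose and 14.8 to 16.9% fell. In both TN libraries 48 of the 122 were at 0, and some passed the filter on low counts only through the SCFA groups. Of the 35 tested with a mean under 1 CPM, 29, 29, 32 and 31 rose, against 24.3, 25.1, 26 and 27.5% of all genes at that level. DLX4 stood at 0.583 CPM in TN, 6.65 in PRTN and 7.45 in TNBU, PITX3 at 0.273 CPM in TN, 3.72 in PRTN and 3.84 in TNBU and POU6F1, which fell, at 5.61 CPM in TN, 1.03 in PRTN and 0.919 in TNBU. ONECUT3 was listed at 0 in TN and reached 1.28 CPM in PRTN. In TN against Ctrl 3 of these homeobox genes were up and 1 was down (all genes 0.764% and 0.534%). Of the protein-coding genes that flank the clusters, 22 of 24 were tested, with counts up and down of 5 and 5 (PRTN), 5 and 3 (BUTN), 5 and 5 (TNPR) and 5 and 5 (TNBU), where all genes had 23.1 to 25% up and 14.8 to 16.9% down, and none was called in TN against Ctrl. SKAP2, which flanks the HOXA cluster, rose from 64.0 (TN) to 190.4 (PRTN) and 186 CPM (TNBU), TTLL6, the neighbour beyond HOXB13, from 0.238 (TN) to 2.17 (PRTN) and 2.53 CPM (TNBU) and CALCOCO1, the neighbour beyond HOXC13, from 32.5 (TN) to 149 (PRTN) and 171 CPM (TNBU). Other flanking genes stood lower with an SCFA. Beside the HOXC cluster, ATF7 went from 65.4 (TN) to 31.6 (PRTN) and 36.1 CPM (TNBU). HNRNPA1, also beside HOXC, went from 1183 (TN) to 639 (PRTN) and 634 CPM (TNBU).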
